A study of Homo sapiens with 10 samples.

Results

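The collagen genes were taken as every row of the 4 deposited gene tables whose symbol reads COL, a number, A and a number, which gave 43 of 23245 genes. They were grouped by the structure their chains form: 11 fibrillar chains, 6 basement membrane chains (type IV), 10 FACIT chains (fibril-associated collagens with interrupted triple helices) and 16 chains of other types, 5 of them of type VI. A gene that is now called COL26A1 stands in the tables as EMID2, outside this rule, and had at most 0.416 FPKM.

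Collagens are the main structural proteins of the extracellular matrix, and each molecule is a triple helix of chains encoded by 1 or more genes. Fibrillar collagens such as types I, III, V and XI form the tensile fibrils of bone, skin and cartilage. Type IV forms the sheet of basement membranes, FACIT chains decorate fibrils, and type VI forms beaded filaments around cells. Bone-forming cells make abundant type I collagen, mesenchymal-like cells of a neuroblastoma culture can make fibrillar collagens, and blood cells in suspension lay down little matrix.

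The study measured RNA by sequencing after expression of PcTF, a synthetic activator that joins the polycomb chromodomain of CBX8, which binds the silencing mark H3K27me3, to mCherry and a viral activation domain. The first groups are 1 library each of PcTF-transfected cells: U-2 OS (osteosarcoma) 96 h after transfection, SK-N-SH (neuroblastoma) 96 h after transfection and K562 (erythroleukaemia) 48 h after transfection. Their references are 1 mock-transfected library per line, which received the transfection reagents without plasmid. The second set is 2 libraries of U2OS-PcTF, a U-2 OS line with a chromosomal PcTF gene under a doxycycline-inducible promoter, against 1 library of U2OS-dTF, which carries dTF, the same protein without the chromodomain. Both stable lines had 1 ug/mL doxycycline for 96 h, so the dTF control carries an activation domain and doxycycline too, whereas mock cells had neither. Each stable line is a single isogenic line, and transfected cultures were not sorted, so they also held cells without plasmid. By 48 h the study's flow cytometry found mCherry-positive cells to be a minority in all PcTF-transfected lines. That share fell with time, and none is given for 96 h. In such bulk RNA, fewer cells making a collagen and less of its RNA per cell cannot be told apart.

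Values are FPKM (fragments scaled to transcript length and library depth), a per-length scale on which different genes can be set beside each other. Of 8 value columns, 7 are 1 library each and 1 is the authors' mean of 3 U-2 OS PcTF libraries, the transfected one and the 2 stable ones. The mean of the 2 stable libraries was derived by subtracting the transfected library. The methods and the labels disagree on how many libraries each stable line had, the labels were followed here, and the derived mean rests on that. Each control is 1 library and the mean of 3 comes without its spread, so there is no replicate check and no test. A difference was called at 2-fold or more with at least 1 FPKM in the higher column, on the scale log2 of (FPKM + 0.1), and the 95% intervals given are exact binomial intervals on estimated reads that cover counting error only. These intervals are on the ratio without the added 0.1, so at low FPKM a log2 difference can lie far from their middle. Depth was estimated at 4.27e+06 to 7.41e+06 reads per library. The labels were checked against markers: 3 of 7 osteoblast markers were at 1 FPKM or more in PcTF-transfected and in mock U-2 OS, with IBSP and TWIST1 listed at 0. The same list had 3 of 7 in both SK-N-SH and 4 of 7 in both K562 libraries, so it does not set U-2 OS apart. For SK-N-SH it was 9 of 10 sympathetic neuroblast markers in both libraries, with TH listed at 0, against at most 4 in any column of another line. In K562 it was 9 of 9 erythroid markers in both, against at most 2 elsewhere.

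Summed collagen RNA was highest in SK-N-SH and lowest in K562, and its make-up differed by line. Of 43 genes, 25 reached 1 FPKM in at least 1 deposited column, 8 did so in every adherent (SK-N-SH or U-2 OS) column (COL1A1, COL4A1, COL4A2, COL5A1, COL5A2, COL6A1, COL6A2 and COL6A3), and only COL4A2 did so in all 8, while COL17A1 reached it only in the derived stable mean. Summed over the 43 genes, collagen RNA was 297 FPKM in PcTF-transfected and 789 FPKM in mock U-2 OS. It was 1005 and 1503 FPKM in PcTF-transfected and mock SK-N-SH, 25.3 and 21.9 FPKM in PcTF-transfected and mock K562, and 309 FPKM in the mean of 3 U-2 OS PcTF libraries against 154 FPKM in U2OS-dTF. The 4 tables were made separately by the authors, so sums set across lines are approximate. The fibrillar share was 22.5% in PcTF-transfected against 76.0% in mock U-2 OS, and 89.1% against 95.4% in SK-N-SH. Type IV made up 44.7% in PcTF-transfected against 10.6% in mock U-2 OS. COL3A1 carried much of this: without it, the sum was 269 FPKM in PcTF-transfected and 338 FPKM in mock U-2 OS, and 511 and 533 FPKM in SK-N-SH.

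**Figure D1:**
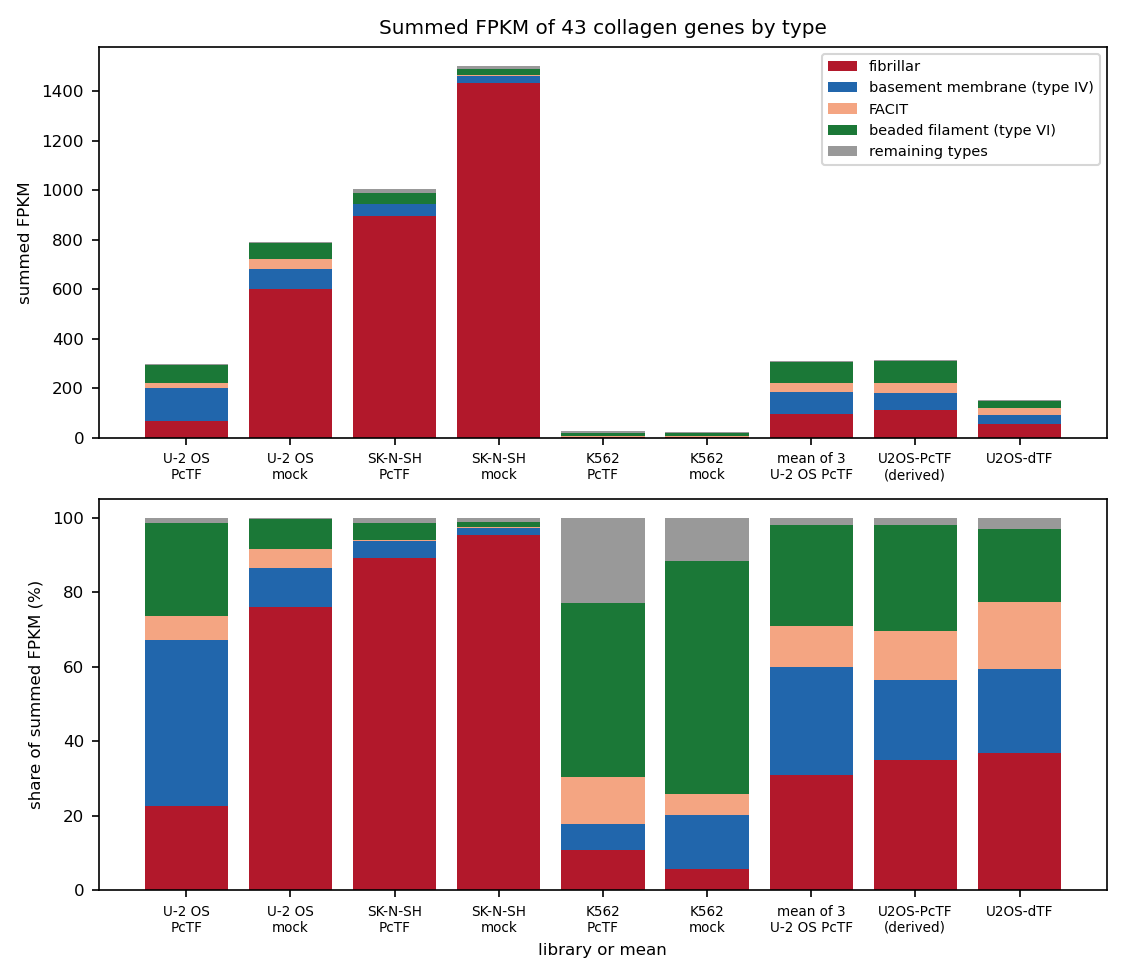
Summed FPKM of the 43 collagen genes (top, y axis) and the share of each structural type in that sum (bottom, percent) in 8 deposited columns and the derived mean of 2 U2OS-PcTF libraries (x axis), with each bar starting at 0. Fibrillar chains fill 22.5% of the PcTF-transfected U-2 OS bar and 76.0% of the mock one, and both K562 bars are under 26 FPKM.

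**Figure D2:**
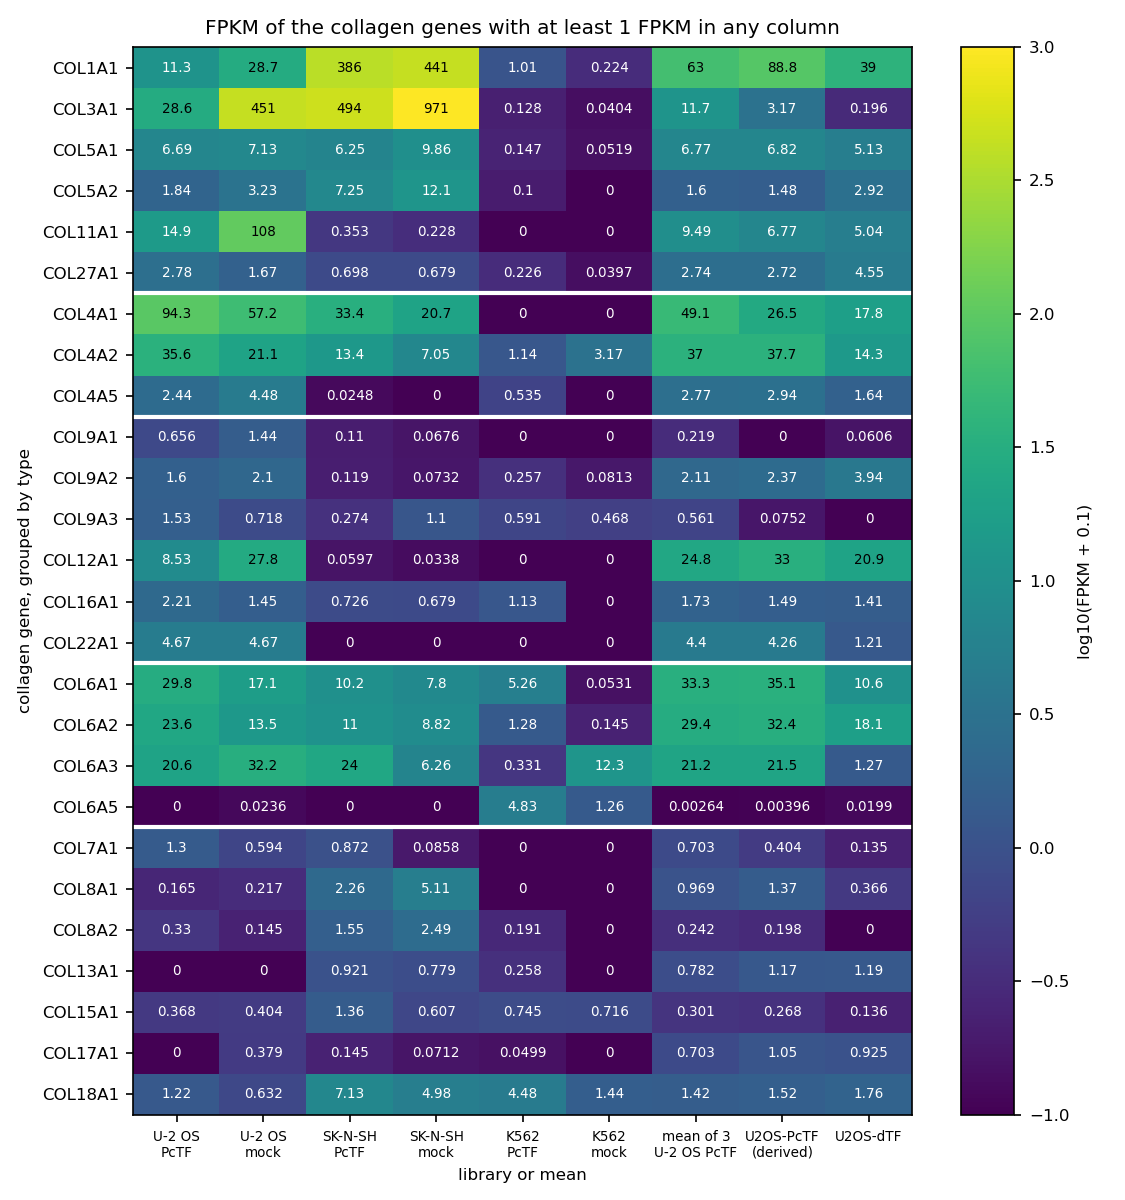
FPKM of the 26 collagen genes with at least 1 FPKM in any column, the derived mean included (rows, grouped by type with white lines between fibrillar, type IV, FACIT, type VI and remaining chains) in each column, coloured by log10(FPKM + 0.1) with the FPKM printed in each cell. The brightest cells are COL1A1 and COL3A1 in SK-N-SH and COL3A1 and COL11A1 in mock U-2 OS.

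Among the fibrillar chains, COL3A1, the single chain of type III collagen (chromosome 2, 189839099 to 189877472, hg19, the whole gene on the plus strand), was at 28.6 FPKM in PcTF-transfected and 451 FPKM in mock U-2 OS. It was at 494 and 971 FPKM in PcTF-transfected and mock SK-N-SH, and at 0.128 and 0.0404 FPKM in PcTF-transfected and mock K562. The mean of 3 U-2 OS PcTF libraries was 11.7 FPKM against 0.196 FPKM in U2OS-dTF, and the derived stable mean was 3.17 FPKM. Within U-2 OS, then, this gene ran from 6 estimated reads in U2OS-dTF to 11645 in mock cells, with every PcTF value between them. The transfected library supplied 81.9% of the mean of 3.

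COL11A1, the alpha 1 chain of type XI collagen that nucleates fibrils in cartilage (chromosome 1, 103342023 to 103574052, hg19, the whole gene on the minus strand), was at 14.9 FPKM in PcTF-transfected and 108 FPKM in mock U-2 OS. The mean of 3 was 9.49 FPKM and the derived stable mean 6.77 FPKM, against 5.04 FPKM in U2OS-dTF. Its SK-N-SH levels were 0.353 and 0.228 FPKM in PcTF-transfected and mock cells, and in K562 it was listed at 0 in both. The mock U-2 OS value was 7.20 times the next highest, that of PcTF-transfected U-2 OS. Its partner COL11A2 was listed at 0 in every column, but its row lies on a haplotype copy of chromosome 6, where RPS18, a ribosomal protein gene that every cell uses, was also listed at 0, so a listed 0 is not read as absence.

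COL1A1, the main chain of type I collagen in bone and skin (chromosome 17, 48261457 to 48279000, hg19, minus strand), was at 11.3 FPKM in PcTF-transfected and 28.7 FPKM in mock U-2 OS. It was at 386 and 441 FPKM in PcTF-transfected and mock SK-N-SH, and at 1.01 and 0.224 FPKM in PcTF-transfected and mock K562. The mean of 3 was 63.0 FPKM and the derived stable mean 88.8 FPKM, against 39.0 FPKM in U2OS-dTF. The stable lines thus held more COL1A1 than the transfected and mock U-2 OS libraries, in both PcTF and dTF cells. COL1A2, the other chain of the usual type I molecule, was below 1 FPKM in every column and listed at 0 in every U-2 OS column, and its SK-N-SH levels were 0.721 and 0.259 FPKM in PcTF-transfected and mock cells, where COL1A1 was among the highest collagens.

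COL5A1 and COL5A2, the chains of type V collagen that set fibril diameter, stayed within 2-fold in both adherent lines. COL5A1 was at 6.69 and 7.13 FPKM in PcTF-transfected and mock U-2 OS, 6.25 and 9.86 FPKM in PcTF-transfected and mock SK-N-SH, 0.147 and 0.0519 FPKM in PcTF-transfected and mock K562, and 6.77 FPKM in the mean of 3 against 5.13 FPKM in U2OS-dTF. COL5A2 stood at 1.84 against 3.23 FPKM, 7.25 against 12.1 FPKM, and 0.1 against 0 FPKM in the same 3 pairs, and at 1.60 FPKM in the mean of 3 against 2.92 FPKM in U2OS-dTF. COL5A2 lies tail to tail with COL3A1 on chromosome 2, with 19168 bases between them. In U-2 OS both were lower in PcTF-transfected than in mock cells but by unlike amounts, with log2 differences of -0.78 for COL5A2 and -3.97 for COL3A1. In SK-N-SH these differences were closer, at -0.73 for COL5A2 and -0.97 for COL3A1. In the mean of 3 against U2OS-dTF they had opposite signs, at -0.83 for COL5A2 and 5.31 for COL3A1. COL27A1, a fibrillar chain of cartilage, was at 2.78 and 1.67 FPKM in PcTF-transfected and mock U-2 OS, 0.698 against 0.679 FPKM in SK-N-SH, 0.226 and 0.0397 FPKM in K562, and 2.74 FPKM in the mean of 3 against 4.55 FPKM in U2OS-dTF. The remaining fibrillar genes (COL2A1, COL5A3 and COL24A1) stayed below 1 FPKM in every column.

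Of the type IV chains, COL4A1 and COL4A2 encode the ubiquitous basement membrane chains, which assemble with each other, and lie head to head on chromosome 13 (110801310 to 110959496 on the minus strand and 110959631 to 111165373 on the plus strand, hg19), with 134 bases between them. COL4A1 was at 94.3 and 57.2 FPKM in PcTF-transfected and mock U-2 OS, 33.4 and 20.7 FPKM in PcTF-transfected and mock SK-N-SH, was listed at 0 in both K562 libraries, and at 49.1 FPKM in the mean of 3 against 17.8 FPKM in U2OS-dTF. COL4A2 stood at 35.6 against 21.1 FPKM, 13.4 against 7.05 FPKM, and 1.14 against 3.17 FPKM in the same 3 pairs, and at 37.0 FPKM in the mean of 3 against 14.3 FPKM in U2OS-dTF. In both adherent lines the pair had similar log2 differences of PcTF-transfected over mock cells, 0.72 for COL4A1 and 0.75 for COL4A2 in U-2 OS and 0.69 and 0.91 in SK-N-SH, none of them past 2-fold. Their counting intervals, 0.63 to 0.81 for COL4A1 and 0.61 to 0.90 for COL4A2 in U-2 OS, overlapped. The ratio of COL4A1 to COL4A2 was 2.65 in PcTF-transfected and 2.70 in mock U-2 OS, but 0.702 in the derived stable mean and 1.24 in U2OS-dTF, so the chains were not at 1 ratio across U-2 OS cultures.

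Of the other type IV genes, COL4A5, a chain of kidney and smooth muscle basement membranes, was at 2.44 and 4.48 FPKM in PcTF-transfected and mock U-2 OS, 0.0248 against 0 FPKM in SK-N-SH, 0.535 and 0 FPKM in K562, and 2.77 FPKM in the mean of 3 against 1.64 FPKM in U2OS-dTF. Its head-to-head neighbour COL4A6, 369 bases away on chromosome X, reached at most 0.0665 FPKM, and COL4A3 and COL4A4, a head-to-head pair on chromosome 2, at most 0.913 FPKM.

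**Figure D3:**
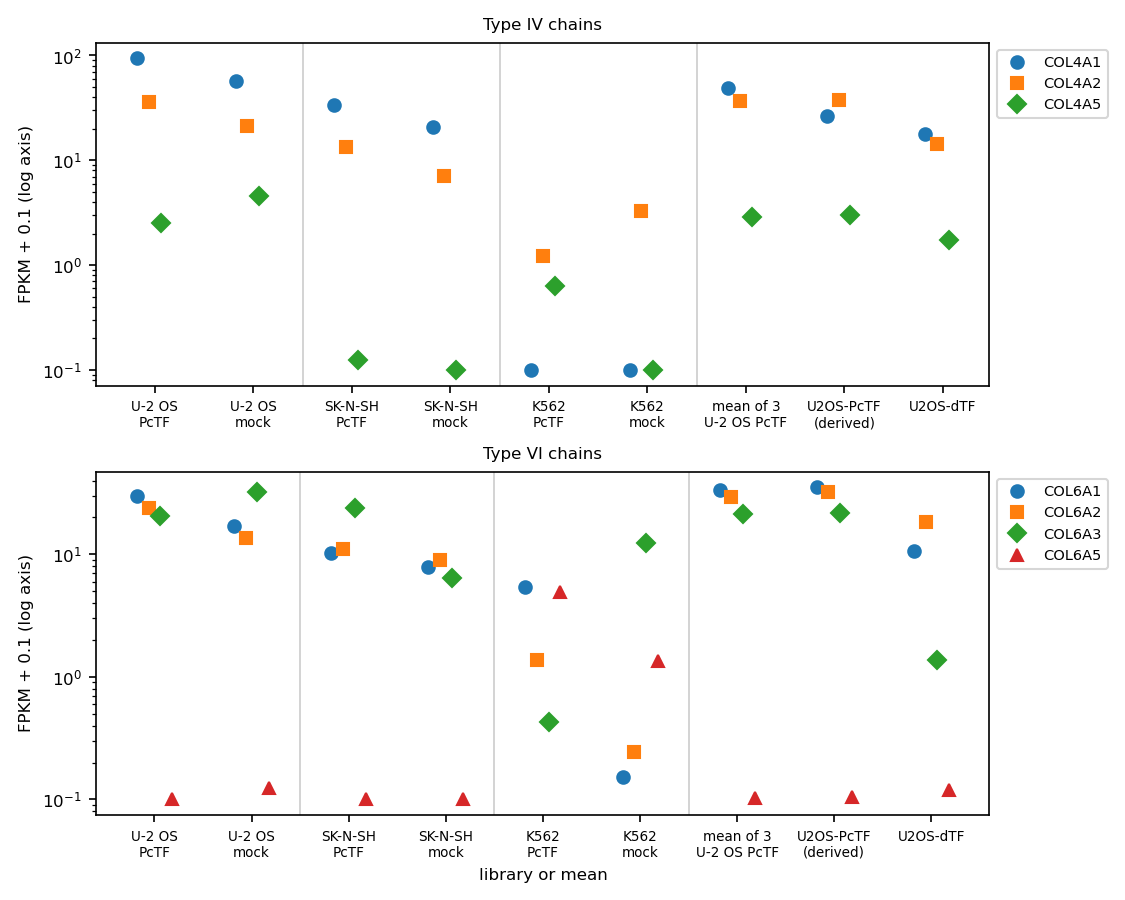
FPKM + 0.1 on a log axis for type IV chains (top) and type VI chains (bottom) in each column, with grey lines between the 3 lines and the stable set, and a value listed at 0 plotted at 0.1. COL4A1 and COL4A2 are both higher in PcTF-transfected than in mock cells of the adherent lines, and COL6A3 is the lowest of the 3 main type VI chains in PcTF-transfected K562 and the highest in mock K562.

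Of the type VI genes, COL6A1 and COL6A2 encode the short chains of type VI collagen, on chromosome 21 on the same strand with 93069 bases between them, and COL6A3 the long chain, on chromosome 2 (238232655 to 238322850, hg19, minus strand). COL6A1 was at 29.8 and 17.1 FPKM in PcTF-transfected and mock U-2 OS, 10.2 and 7.80 FPKM in PcTF-transfected and mock SK-N-SH, 5.26 and 0.0531 FPKM in PcTF-transfected and mock K562, and 33.3 FPKM in the mean of 3 against 10.6 FPKM in U2OS-dTF. COL6A2 stood at 23.6 against 13.5 FPKM, 11.0 against 8.82 FPKM, and 1.28 against 0.145 FPKM in the same 3 pairs, and at 29.4 FPKM in the mean of 3 against 18.1 FPKM in U2OS-dTF. COL6A1 and COL6A2 thus were higher in each PcTF column than in its reference, though past 2-fold only in K562 and, for COL6A1, in the mean of 3.

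COL6A3 behaved differently: it was at 20.6 and 32.2 FPKM in PcTF-transfected and mock U-2 OS, 24.0 and 6.26 FPKM in PcTF-transfected and mock SK-N-SH, 0.331 and 12.3 FPKM in PcTF-transfected and mock K562, and 21.2 FPKM in the mean of 3 against 1.27 FPKM in U2OS-dTF. The ratio of COL6A3 to COL6A1 was 0.691 in PcTF-transfected and 1.89 in mock U-2 OS, and 2.35 in PcTF-transfected and 0.803 in mock SK-N-SH. The U2OS-dTF value of COL6A3 lay below every other adherent column. COL6A5, a further long chain, was found at 1 FPKM or more only in K562, at 4.83 and 1.26 FPKM in PcTF-transfected and mock cells, and at most 0.0236 FPKM in every other column. Its neighbour COL6A6 stayed below 1 FPKM in all columns.

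Among the FACIT chains, COL12A1, a FACIT chain of tendon and bone-lining tissue (chromosome 6, 75794042 to 75915623, hg19, minus strand), was at 8.53 and 27.8 FPKM in PcTF-transfected and mock U-2 OS, and at 24.8 FPKM in the mean of 3 against 20.9 FPKM in U2OS-dTF. Its SK-N-SH levels were 0.0597 and 0.0338 FPKM in PcTF-transfected and mock cells, and it was listed at 0 in both K562 libraries, so it was a U-2 OS collagen in these data. COL22A1, a FACIT chain of muscle-tendon junctions, was at 4.67 FPKM in both PcTF-transfected and mock U-2 OS, 4.40 FPKM in the mean of 3 against 1.21 FPKM in U2OS-dTF, and listed at 0 in SK-N-SH and K562.

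The type IX chains, cartilage FACITs, were low. COL9A1 was at 0.656 and 1.44 FPKM in PcTF-transfected and mock U-2 OS, and COL9A2 at 1.60 and 2.1 FPKM. COL9A3 was at 1.53 and 0.718 FPKM in those 2 libraries, and at 0.274 and 1.10 FPKM in PcTF-transfected and mock SK-N-SH. COL9A1 was at 0.219 FPKM in the mean of 3 and 0.0606 FPKM in U2OS-dTF, COL9A2 at 2.11 and 3.94 FPKM, and COL9A3 at 0.561 and 0 FPKM. The transfected library supplied nearly all of that mean for COL9A1 and 91.1% for COL9A3, and the derived stable means were 0 FPKM for COL9A1, 2.37 FPKM for COL9A2 and 0.0752 FPKM for COL9A3. The rest of the type IX values, in SK-N-SH and K562, were at most 0.591 FPKM. COL16A1, a FACIT chain of fibroblasts, was at 2.21 and 1.45 FPKM in PcTF-transfected and mock U-2 OS, 0.726 against 0.679 FPKM in SK-N-SH, 1.13 and 0 FPKM in K562, and 1.73 FPKM in the mean of 3 against 1.41 FPKM in U2OS-dTF.

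COL18A1, a multiplexin of basement membranes whose C-terminal fragment is endostatin, had its highest levels in SK-N-SH, at 7.13 and 4.98 FPKM in PcTF-transfected and mock cells. Its levels were 1.22 and 0.632 FPKM in PcTF-transfected and mock U-2 OS, 4.48 against 1.44 FPKM in K562, and 1.42 FPKM in the mean of 3 against 1.76 FPKM in U2OS-dTF. The short-chain network collagens COL8A1 and COL8A2 were found mainly in SK-N-SH, COL8A1 at 2.26 and 5.11 FPKM and COL8A2 at 1.55 and 2.49 FPKM in PcTF-transfected and mock cells. In U-2 OS columns COL8A1 reached 0.969 FPKM in the mean of 3 against 0.366 FPKM in U2OS-dTF and was at 0.165 and 0.217 FPKM in PcTF-transfected and mock cells, while COL8A2 was at most 0.330 FPKM. The derived stable mean of COL8A1 was 1.37 FPKM. Both K562 libraries list COL8A1 at 0, with COL8A2 at 0.191 and 0 FPKM in PcTF-transfected and mock cells. COL8A1, COL9A3 and COL18A1 overlap other genes of the tables, and since the use of strand in counting was not known, some of their reads may belong to those.

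The anchoring fibril chain COL7A1 was at 1.3 and 0.594 FPKM in PcTF-transfected and mock U-2 OS, 0.872 against 0.0858 FPKM in SK-N-SH, listed at 0 in K562, and at 0.703 FPKM in the mean of 3 against 0.135 FPKM in U2OS-dTF. COL15A1, the other multiplexin, was at 1.36 and 0.607 FPKM in PcTF-transfected and mock SK-N-SH and below 1 FPKM elsewhere. Of the transmembrane collagens, COL13A1 was at 0.782 FPKM in the mean of 3 and 1.17 FPKM in the derived stable mean, against 1.19 FPKM in U2OS-dTF, was listed at 0 in PcTF-transfected and mock U-2 OS, and stayed below 1 FPKM in SK-N-SH and K562. COL17A1 reached 1 FPKM only in the derived stable mean, at 1.05 FPKM. The 17 genes below 1 FPKM in every column had a highest value of 0.913 FPKM.

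Promoter sequence from RefSeq (GRCh38.p14, 250 bases before to 50 after each start) was matched by symbol for 31 of 43 collagen genes. The 12 without a match include COL1A1, COL3A1, COL5A2 and COL6A1, so the shares below leave these abundant chains out. COL4A2 is shown because its window overlaps that of COL4A1 over 226 bases and the pair had like differences, COL11A1 because it had one of the largest differences in U-2 OS, and COL6A3 because it was called in opposite directions in SK-N-SH and K562. Capitals mark the GC box GGGCGG and CCAAT on either strand, and TATAAA has no match in these windows. The motifs do not overlap each other here.
COL4A2: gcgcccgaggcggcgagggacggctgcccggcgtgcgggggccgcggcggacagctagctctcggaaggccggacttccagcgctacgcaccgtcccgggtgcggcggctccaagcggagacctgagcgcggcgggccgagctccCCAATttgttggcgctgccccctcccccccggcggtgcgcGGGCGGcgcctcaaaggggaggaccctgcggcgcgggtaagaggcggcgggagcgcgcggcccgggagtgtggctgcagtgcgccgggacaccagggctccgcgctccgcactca
COL11A1: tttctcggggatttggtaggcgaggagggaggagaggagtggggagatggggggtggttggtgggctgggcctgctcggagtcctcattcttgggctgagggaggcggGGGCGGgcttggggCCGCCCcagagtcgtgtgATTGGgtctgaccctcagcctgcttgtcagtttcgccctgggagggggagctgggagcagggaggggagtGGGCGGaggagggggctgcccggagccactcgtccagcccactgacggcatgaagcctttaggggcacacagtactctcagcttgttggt
COL6A3: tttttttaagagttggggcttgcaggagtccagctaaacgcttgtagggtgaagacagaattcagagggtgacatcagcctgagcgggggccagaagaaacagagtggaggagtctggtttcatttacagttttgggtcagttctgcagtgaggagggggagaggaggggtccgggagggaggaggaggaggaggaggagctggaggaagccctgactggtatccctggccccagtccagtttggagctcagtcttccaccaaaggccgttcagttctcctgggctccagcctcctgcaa
These are chr13:110307034-110307333 on the plus strand, chr1:103108473-103108772 on the minus strand and chr2:237414115-237414414 on the minus strand. GGGCGG on either strand was found in 18 of the 31 collagen windows (58.1%) and 44.6% of 27305 windows of all genes, CCAAT in 10 (32.3%) and 35.7%, and TATAAA in 5 (16.1%) and 12.0%. The COL4A1 window held 2 GC boxes and the COL11A1 window 3, whereas COL6A3 held none of the motifs. The observed over expected CpG ratio was 1.02 for COL4A1, 0.420 for COL11A1 and 0.183 for COL6A3, beside a median of 0.701 over the collagen windows and 0.580 over all genes. These matches describe the letters in the windows only.

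PcTF-transfected U-2 OS cells were first compared with mock cells, to ask which collagens differed after transient PcTF expression in osteosarcoma cells. Of 20 collagen genes with at least 1 FPKM in either library, 5 were lower and 1 was higher at 2-fold, which is 25.0% lower and 5.00% higher, beside a background over 12411 genes of 5.59% lower and 12.0% higher. Lower were the fibrillar chains COL3A1, COL11A1 and COL1A1 and the FACIT chains COL12A1 and COL9A1. Higher was COL7A1.

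COL3A1 had a log2 difference of -3.97 (95% interval -4.09 to -3.86, 647 against 11645 estimated reads), COL11A1 -2.84 (-2.99 to -2.71, 454 against 3733 reads), COL12A1 -1.69 (-1.86 to -1.55) and COL1A1 -1.34 (-1.55 to -1.15). The remaining calls rested on few reads: COL9A1 had a log2 difference of -1.03 (-2.35 to -0.02) on 10 against 25 reads, and COL7A1 1.01 (0.42 to 1.88) on 50 against 26 reads. COL7A1 was no longer called when differences were taken relative to the median of all genes at 1 FPKM or more in both libraries, which was 0.06, so that the split became 0 higher and 5 lower. The 14 uncalled genes had log2 differences between -0.85 (COL4A5) and 1.00 (COL9A3), with type IV chains COL4A1 and COL4A2 and type VI chains COL6A1 and COL6A2 between 0.72 and 0.80. The median over the 20 genes was -0.05, beside 0.08 over all genes.

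**Figure D4:**
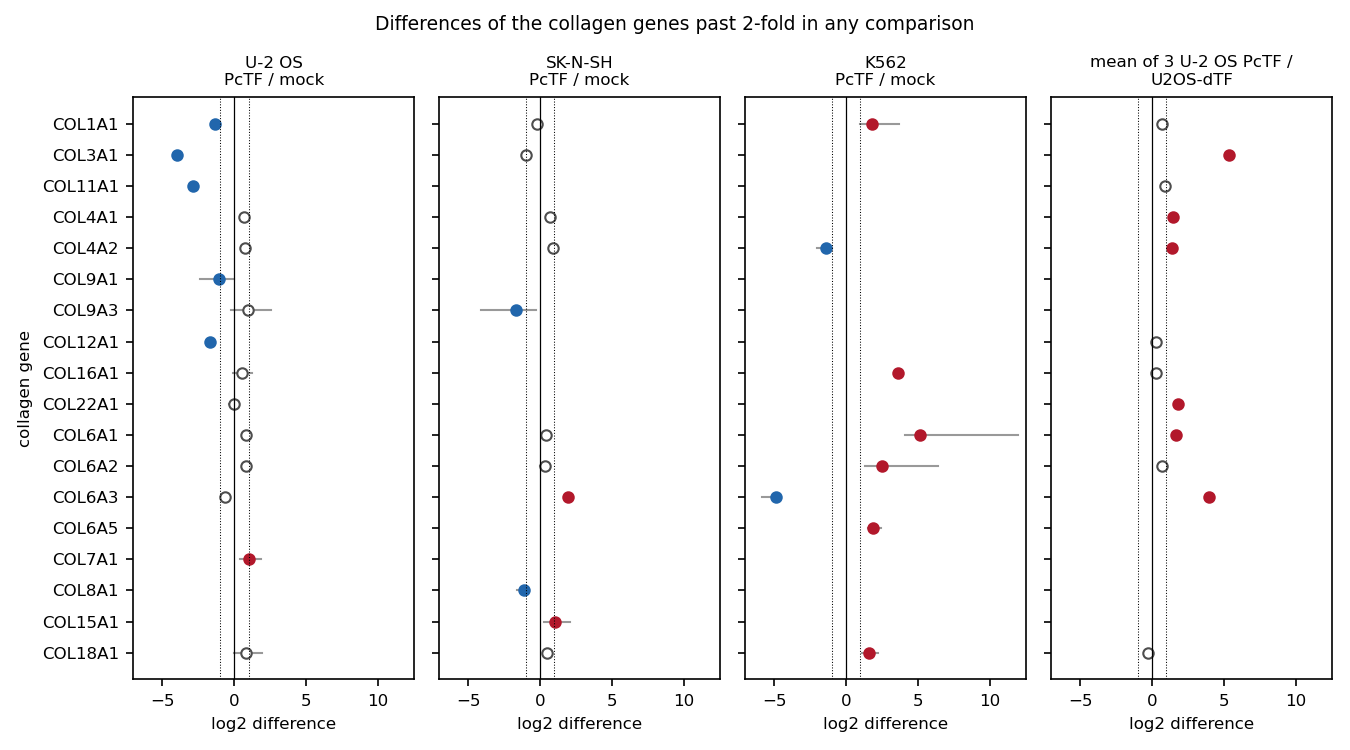
Log2 difference of FPKM + 0.1 (x axis) for each collagen gene called in any of 4 comparisons (y axis), where it had at least 1 FPKM in either column. Red is 2-fold higher, blue 2-fold lower, open circles are not called, dotted lines are 2-fold, and grey bars are 95% counting intervals, which the mean of 3 and COL16A1 in K562 lack. COL3A1 is at -3.97 in transfected U-2 OS and 5.31 in the mean of 3, and COL6A3 at 1.92 in SK-N-SH and -4.84 in K562.

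In PcTF-transfected against mock SK-N-SH cells, 14 collagen genes passed 1 FPKM: 2 were higher and 2 lower (14.3% each way), beside a background over 11954 genes of 5.79% higher and 2.69% lower. COL6A3 was the difference with most reads, at a log2 difference of 1.92 (95% interval 1.77 to 2.11) on 1587 against 335 estimated reads. COL15A1 had 1.04 (0.30 to 2.08) on 44 against 16 reads, COL8A1 -1.14 (-1.60 to -0.77) on 77 against 141 reads and COL9A3 -1.68 (-4.08 to -0.31) on 4 against 13 reads. COL15A1 reached 1 FPKM only in PcTF-transfected cells and COL9A3 only in mock cells. Both calls were thus partly built into passing the filter, which the background shares.

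The abundant fibrillar chains were lower without passing 2-fold: COL3A1 had a log2 difference of -0.97 (-1.0 to -0.95), COL5A2 -0.73, COL5A1 -0.65 and COL1A1 -0.19. Relative to the median of all genes, 0.09, COL3A1 passed 2-fold and COL15A1 did not, so that the split became 1 higher and 3 lower. The median over the 14 genes was 0.06, beside 0.10 over all genes. The summed neuroblast markers were 729 FPKM in PcTF-transfected and 768 FPKM in mock cells, and the summed markers of the mesenchymal-type cells of this line 2801 and 2890 FPKM, with 8 of 8 at 1 FPKM or more in both. VIM, at 1655 and 1910 FPKM, made up most of the latter sum. YAP1 and SNAI2 were also lower in PcTF-transfected cells, whereas PRRX1, FN1, NOTCH2, FOSL1 and CD44 were higher. This list also had 8 of 8 in PcTF-transfected and mock U-2 OS, so it does not set SK-N-SH apart. The part of either cell type in the collagen differences was not tested.

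In PcTF-transfected against mock K562 cells, only 8 collagen genes reached 1 FPKM, and all were called: 6 higher (75.0%) and 2 lower (25.0%), beside a background over 11553 genes of 28.6% higher and 11.7% lower. COL1A1, COL6A1, COL6A2 and COL16A1 reached 1 FPKM only in PcTF-transfected cells, and COL6A3 only in mock cells. Their calls were thus partly built into passing the filter, which the background shares, and the percentages are not read as a result about collagens. The 2 libraries differed broadly, with 14975 genes above 0 in PcTF-transfected and 13246 in mock cells, a median log2 difference of 0.28 for genes at 1 FPKM or more in both, and summed erythroid markers of 21522 FPKM against 7386 FPKM. Whether this table is the version the study plotted was not known, and the part of these differences in the collagen values was not tested.

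Both of the largest differences among these 8 genes were in type VI chains, COL6A1 and COL6A3. COL6A1 had a log2 difference of 5.13 (95% interval 4.12 to 11.93) on 156 against 1 estimated reads, or 4.85 relative to the median of all genes. COL6A2 had 2.50 (1.31 to 6.40) on 31 against 2 reads and COL6A5 1.86 (1.52 to 2.41) on 314 against 51 reads, or 2.21 and 1.58 relative to that median. COL6A3 went the other way, at -4.84 (-5.87 to -4.66) on 25 against 592 reads, or -5.13 relative to the median. Within type VI, then, both short chains and the long chain COL6A5 were higher, and the long chain COL6A3 was lower.

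COL18A1 was higher by a log2 difference of 1.57 (1.11 to 2.21) and COL1A1 by 1.78 (0.94 to 3.70, 43 against 6 reads), or 1.28 and 1.5 relative to the median. COL16A1 was counted as higher on 44 estimated reads in PcTF-transfected cells, but mock cells are listed at 0, so no fold is given. COL4A2 was lower at -1.41 (-1.99 to -0.98) on 53 against 93 reads, or -1.69 relative to the median, in a line where COL4A1 was listed at 0.

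The mean of 3 U-2 OS PcTF libraries was set against U2OS-dTF, whose control protein lacks the chromodomain. Of 18 collagen genes past 1 FPKM, 6 were higher (33.3%) and 0 lower, beside a background over 13022 genes of 36.1% higher and 14.5% lower. Higher were COL3A1, with a log2 difference of 5.31, COL6A3 (3.96), COL22A1 (1.78), COL6A1 (1.64), COL4A1 (1.45) and COL4A2 (1.36). This count of 0 comes from the fold rule alone, with no test behind it here. Genes at 1 FPKM or more in both columns had a median difference of 0.31, and relative to it the same 6 genes stayed past 2-fold, at 5.01, 3.65, 1.48, 1.34, 1.15 and 1.05. COL5A2 (-1.14), COL9A2 (-1.17) and COL27A1 (-1.02) then passed 2-fold lower, so that the split became 6 higher and 3 lower.

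Leaving the transfected library out of the mean showed how far it set these values. In the derived mean of 2 U2OS-PcTF libraries against U2OS-dTF, 7 of 20 genes were higher (35.0%) and 0 lower, beside 37.0% and 13.5% over 12920 genes. COL3A1 then had a log2 difference of 3.47 and COL4A1 0.57, no longer called, whereas COL6A3 (3.98), COL22A1 (1.74), COL6A1 (1.72) and COL4A2 (1.39) changed by less than 0.1. COL1A1 (1.19) and COL8A1 (1.66) were called in addition. Relative to the median of all genes, 0.39, the split became 5 higher and 3 lower: COL1A1 (0.80) and COL4A2 (0.998) were no longer called, and COL5A2, COL9A2 and COL27A1 passed 2-fold lower. The stable U2OS-PcTF spread could not be given, because only the mean was analysed here.

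U2OS-dTF itself differed from mock U-2 OS, a comparison without PcTF on either side and across tables. Of 19 collagen genes, 7 were lower (36.8%) and 3 higher (15.8%), beside 32.0% lower and 28.1% higher over 12660 genes. COL3A1 had a log2 difference of -10.58 (95% interval -12.61 to -10.05), COL6A3 -4.56 (-5.02 to -4.33), COL11A1 -4.39 (-4.63 to -4.22), COL9A1 -3.26, COL22A1 -1.87, COL4A1 -1.67 and COL4A5 -1.40. Higher were COL27A1 at 1.39, COL18A1 at 1.35 and COL13A1, which was listed at 0 in mock cells. Line, transfection reagents, doxycycline and the dTF protein differ together here and cannot be told apart. COL3A1 was thus lower in PcTF-transfected than in mock cells and higher in the mean of 3 than in U2OS-dTF, 2 comparisons that share the transfected library.

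Genes that process collagen were described from lists chosen by function, and their counts are read against the shares of all genes called: 12.0% higher and 5.59% lower in U-2 OS cells, 5.79% and 2.69% for SK-N-SH, 28.6% and 11.7% in K562, and 36.1% and 14.5% in the mean of 3 against U2OS-dTF. As with the collagens, calls of genes at 1 FPKM or more in only 1 column were partly built into passing the filter. Hydroxylation and folding enzymes act on chains in the endoplasmic reticulum before secretion, and 19 of the 21 listed symbols are in the tables. In U-2 OS 1 of 17 was called, PLOD3 (lysyl hydroxylase), at 7.74 FPKM in PcTF-transfected and 3.03 FPKM in mock cells. In SK-N-SH 2 of 19 were higher, the prolyl hydroxylase subunits P4HA3 (2.20 and 0.931 FPKM) and P4HA2 (33.0 and 16.1 FPKM), and 0 lower. In K562 3 of 15 were higher and 1 lower, among them GLT25D2, a collagen galactosyltransferase, at 8.37 FPKM in PcTF-transfected and 36.2 FPKM in mock cells. In the mean of 3 against U2OS-dTF 4 of 17 were higher and 2 lower, beside 36.1% and 14.5% of all genes, with P4HA1 at 57.9 FPKM against 7.64 FPKM and CRTAP, a part of the prolyl 3-hydroxylase complex, at 30.8 FPKM against 108 FPKM, and without the transfected library it was 4 higher and 1 lower. Mock U-2 OS cells had P4HA1 at 143 FPKM and CRTAP at 22.9 FPKM. The medians of this list were 0.07, 0.16, 0.41 and 0.40 in these 4 comparisons, beside 0.08, 0.10, 0.37 and 0.52 over all genes.

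Procollagen proteinases and cross-linking enzymes act outside the cell. In U-2 OS 3 of 11 were lower and 1 higher: TLL1, a procollagen C-proteinase, was at 2.51 FPKM in PcTF-transfected and 31.0 FPKM in mock cells, and LOX, the lysyl oxidase that starts cross-links, at 18.6 and 72.6 FPKM. PCOLCE2, an enhancer of that proteinase step, was at 14.3 and 6.28 FPKM. In SK-N-SH LOX was instead called higher, at 52.5 FPKM in PcTF-transfected and 24.9 FPKM in mock cells, and 2 of 10 genes were higher and 1 lower. In K562 5 of 8 were higher and 2 lower, beside 28.6% and 11.7% of all genes, led by LOXL1 (2.06 and 0.198 FPKM) and PCOLCE (19.7 and 2.86 FPKM). LOXL1 and PCOLCE2 reached 1 FPKM only in PcTF-transfected K562, and both lower genes only in mock K562. This K562 count is therefore not read as a result about the list. In the mean of 3 against U2OS-dTF 5 of 11 were higher and 1 lower, beside 36.1% and 14.5% of all genes, with BMP1, a procollagen C-proteinase, at 3.91 FPKM against 0.311 FPKM. Mock U-2 OS cells had BMP1 at 3.24 FPKM. In the derived stable mean 3 of 10 were higher and 1 lower, beside 37.0% and 13.5%. List medians were -0.07, 0.07, 1.05 and 0.27.

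Matrix proteins that bind collagen gave 3 of 7 lower and 0 higher in U-2 OS: POSTN (periostin) was at 9.00 FPKM in PcTF-transfected and 120 FPKM in mock cells, LUM (lumican) at 1.22 and 4.39 FPKM and MATN2 at 8.88 and 29.3 FPKM. In SK-N-SH 1 of 8 was lower, MATN2 at 4.56 and 9.98 FPKM, and in K562 1 of 2, FN1 (fibronectin) at 12.8 and 51.9 FPKM. In the mean of 3 against U2OS-dTF 3 of 8 were higher and 2 lower. POSTN was at 3.01 FPKM against 0 FPKM, BGN (biglycan) at 5.21 against 0.154 FPKM and FN1 at 124 against 15.1 FPKM. Mock U-2 OS cells had BGN at 11.6 FPKM and FN1 at 42.9 FPKM. In the derived stable mean 1 of 6 was higher, FN1 at 159 FPKM. The 2 lower were THBS2, at 1.73 against 7.78 FPKM in U2OS-dTF, and OGN, at 0.277 against 2.00 FPKM. BGN, at 0.363 FPKM, and POSTN, at 0.0125 FPKM, were then below the filter. List medians were -0.66, 0.05, -0.62 and 0.19.

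Of the collagen receptors, 1 of 5 was called in U-2 OS, ITGA2, the alpha 2 integrin, at 209 FPKM in PcTF-transfected and 51.7 FPKM in mock cells. In SK-N-SH 0 of 4 and in K562 0 of 2 passed 2-fold. In the mean of 3 against U2OS-dTF 4 of 5 were higher, beside 36.1% of all genes, with DDR2, a fibrillar collagen receptor, at 8.43 FPKM against 0.350 FPKM, ITGA1 at 13.6 FPKM against 0.826 FPKM and ITGA2 at 108 FPKM against 7.36 FPKM. In the derived stable mean DDR2 was at 1.02 FPKM, ITGA1 at 5.15 FPKM and ITGA2 at 57.7 FPKM. Mock U-2 OS cells had DDR2 at 21.4 FPKM, ITGA1 at 27.9 FPKM and ITGA2 at 51.7 FPKM. In U2OS-dTF against mock U-2 OS 3 of 5 were lower and 0 higher, beside 32.0% and 28.1% of all genes. What the low U2OS-dTF values contribute to the higher calls was not tested. List medians were 0.42, 0.22, -0.25 and 3.86, and 1.31 in the derived stable mean against U2OS-dTF.

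Regulators of collagen genes gave 1 of 12 higher and 3 lower in U-2 OS, with TGFB1 at 7.95 and 3.28 FPKM and PRRX1, a mesenchymal homeobox gene, at 4.06 and 11.1 FPKM in PcTF-transfected and mock cells. In SK-N-SH 0 of 12 passed 2-fold. In K562 1 of 7 was higher and 2 lower, with RUNX2, a transcription factor of bone-forming cells, at 0.128 FPKM in PcTF-transfected and 9.13 FPKM in mock cells. In the mean of 3 against U2OS-dTF 3 of 12 were higher and 0 lower, beside 36.1% and 14.5% of all genes, PRRX1 at 4.93 FPKM against 0.273 FPKM, RUNX2 at 14.1 FPKM against 2.66 FPKM and SOX9, a cartilage transcription factor, at 64.7 FPKM against 19.3 FPKM. Mock U-2 OS cells had PRRX1 at 11.1 FPKM, RUNX2 at 7.30 FPKM and SOX9 at 29.6 FPKM. List medians were -0.14, -0.03, -0.51 and 0.08.

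**Figure D5:**
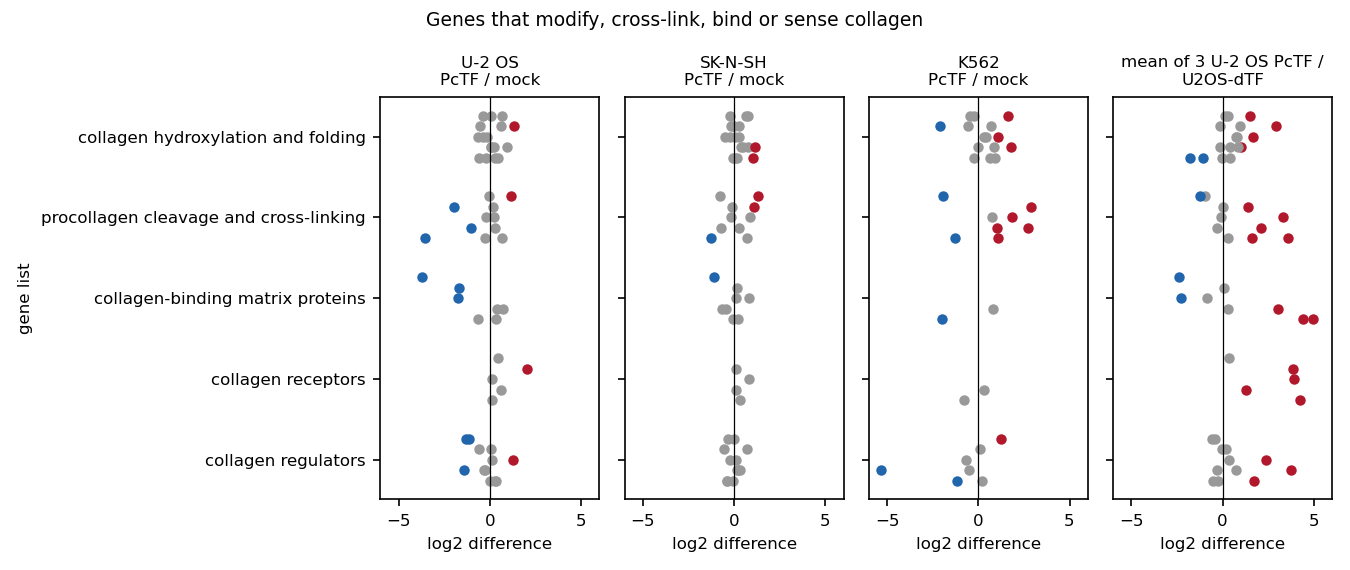
Log2 difference of FPKM + 0.1 (x axis) for each gene of 5 collagen-related lists with at least 1 FPKM in either column (y axis, spread vertically only to separate points) in 4 comparisons. Red is 2-fold higher, blue 2-fold lower and grey not called. The collagen receptors have 4 red points of 5 in the mean of 3 against U2OS-dTF and 1 of 5 in transfected U-2 OS.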

How the data were processed

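RNA of 10 libraries was sequenced by the study, and 9 entered the 4 tables used here. The library of U-2 OS cells labelled as transfected with dTF was not analysed here. Per the submitters' processing notes, read quality was assessed (FastQC) and alignment used TopHat2 2.1.0 with Bowtie2 and the hg19 genome, followed by Cufflinks and Cuffdiff. The deposited FPKM are the authors' Cuffdiff output, scaled to library depth and transcript length. The tables also hold the authors' log2 fold changes, p-values and q-values, none of which were used.

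The collagen genes, types and gene lists were chosen with earlier results of these data known. Values are given for members at 1 FPKM or more in any column, with some low columns only as a bound, and differences for those called. Of listed non-members, up to 3 called genes per list and comparison were open to naming. The study's methods state triplicates for both stable lines, whereas the labels give 2 U2OS-PcTF libraries and 1 of U2OS-dTF, and the labels were followed. The derived stable mean is 3 times the deposited mean minus the transfected library, over 2: of 16049 genes above 0, 325 had 3 times the mean equal to the transfected library within 0.01% and 10 lay over 1% below it.

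Reads were estimated from FPKM, transcript length (GENCODE) and depth, the depth being the smallest step of low values of 671 single-exon genes with 97.3% to 100% of them whole within 3%; the search was tested on simulated data. Only 59.7% of 72 low collagen values lay within 0.1 of a whole read, so reads are approximate. The kit's and the counting's use of strand is not given in the sources used here, and 9 of 43 genes overlap another table gene, among them COL10A1 (NT5DC1), COL8A1 (FILIP1L), COL9A3 (TCFL5) and COL18A1 (its antisense gene), whose values are therefore uncertain. Python 3.11.15 with pandas 2.3.3, scipy 1.17.1 and matplotlib 3.10.9 was used.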

Additional observations from a re-analysis of the deposited data

Results flagged for a closer look

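COL6A3 was called in opposite directions in 2 lines under the same contrast: PcTF-transfected SK-N-SH cells had 24.0 FPKM against 6.26 FPKM in mock cells, and PcTF-transfected K562 cells had 0.331 FPKM against 12.3 FPKM in mock cells. The log2 differences of the lines lay 6.77 apart. COL1A1 was lower in PcTF-transfected than in mock U-2 OS (11.3 and 28.7 FPKM) and higher in PcTF-transfected than in mock K562 (1.01 and 0.224 FPKM), with the U-2 OS log2 difference minus that of K562 at -3.12. The K562 call of COL1A1 lay just over the filter of 1 FPKM, on 43 against 6 estimated reads. With a pseudocount of 1 its log2 difference in K562 was 0.72, no longer called. These differences between lines were not tested, since each group is 1 library.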

How the results depend on the processing

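No paired analysis was possible because every comparison has a control of 1 library, and the mean of 3 PcTF libraries is a single column. Counts of collagen genes called higher and lower were recomputed under each alternative, all planned except the read-interval rule, which was chosen after seeing the data and kept every call in the 3 transfected lines. In U-2 OS the 1 higher call became 0 with a pseudocount of 1, with at least 5 FPKM, after centring and after upper quartile scaling, 2 with a pseudocount of 0.01 and 8 at 1.5-fold, and the 5 lower calls became 8 without a filter and 8 at 1.5-fold. In SK-N-SH the 2 higher calls became 1 with a pseudocount of 1, with at least 5 FPKM, after centring and after upper quartile scaling, 5 without a filter and 4 at 1.5-fold, and the 2 lower calls became 0 with a pseudocount of 1, 1 with at least 5 FPKM and 6 at 1.5-fold. In K562 the 6 higher calls became 13 without a filter and 1 with at least 5 FPKM, and the 2 lower calls became 1 with a pseudocount of 1 and 1 with at least 5 FPKM. In the mean of 3 against U2OS-dTF the 6 higher calls became 15 without a filter and 10 at 1.5-fold, and the 0 lower calls became 3 at 1.5-fold and 3 after centring. Without the transfected library it was 7 higher and 0 lower. There were other moves. In U-2 OS the 5 lower calls became 4 with a pseudocount of 1 and 4 with at least 5 FPKM. In SK-N-SH the 2 lower calls became 3 after centring and 3 after upper quartile scaling. In K562 the 6 higher calls became 4 with a pseudocount of 1 and 5 after upper quartile scaling. Without a filter its 2 lower calls became 3. In the mean of 3 the 6 higher calls became 5 with at least 5 FPKM and 8 after upper quartile scaling. Called log2 differences could not change sign under the pseudocounts, and both scalings moved them by too little to do so. For the mean of 3, none changed sign without the transfected library. The causes of these moves were not tested. Depth limits the low genes: COL9A3 in SK-N-SH, COL9A1 in U-2 OS and COL6A1, COL6A2 and COL1A1 in mock K562 rest on fewer than 26 estimated reads.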
